A study of Mus musculus with 4 samples.

Results

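Crygb, Crygc and Cryab are 3 crystallin genes, followed here through every cell type and region of the mouse epididymis and vas deferens. They were taken by name from a table of 16892 genes, and had been selected on their UMI levels in the cells of the vas deferens library in these same data, so their levels are a description and carry no test. The libraries were made from adult male FVB/NJ mice aged 10 to 12 weeks, with no genotype or treatment that sets the groups apart. For each of caput, corpus, cauda and vas deferens, 8 segments from the same 4 mice were pooled, freed of sperm, dissociated and made into 1 single-cell library on the 10x platform, so no region has a replicate and the mice cannot be told apart. The 4 libraries held 1433 to 3506 cells and 4408989 to 10744928 UMIs (unique molecular identifiers, each standing for 1 captured transcript). The median UMIs per cell ran from 1433 in the corpus to 2207 in the vas deferens, and 43 cell barcodes occurred in more than 1 library. The authors' names for 34 populations of cells were used as deposited, with principal cell populations called PC01 to PC15.

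Crystallins are best known as the abundant soluble proteins of the eye lens. Cryab encodes an alpha crystallin, a small heat shock protein that keeps unfolding proteins from clumping, and it is known for its presence outside the lens, as in striated muscle. Crygb and Crygc encode gamma crystallins, compact monomers of the lens fibre cell whose genes lie side by side in the genome. Principal cells are the main secretory and absorptive epithelial cells of the epididymal duct and of the vas deferens, the muscular tube that carries sperm onward.

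Crygb and Crygc UMIs lay mainly in principal cells of the vas deferens, the library they were selected on, and Cryab UMIs did not. Of 947 Crygb UMIs in all cells, 919 (97.0%) were in principal cells of the vas deferens library, and of 9567 Crygc UMIs, 9423 (98.5%) were. Of 2403 Cryab UMIs, 208 (8.66%) were in those cells, while 1450 (60.3%) were in stromal cells. A gene was counted as restricted to principal cells of the vas deferens if it had at least 20 UMIs there and at least 4 times the level of the principal cells of every other library. Crygb and Crygc met this and Cryab did not, against 1.58% of the 9023 genes that had 20 UMIs there (143 genes), or 1.45% of the 9854 genes with 20 UMIs in the principal cells of any library. In principal cells the vas deferens was the highest library for Crygb and Crygc, as it was for 33.0% of the 10998 genes with 20 UMIs in principal cells, and it was not for Cryab. As this is the pattern the genes were listed for, nothing is read from these counts.

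Because gamma crystallin genes are near copies of each other, their sequences decide whether their reads can be told apart. Crygb and Crygc were 83.8% identical over the coding sequence, and their transcripts had the same letters over a run of 221 bases. Reads of this platform come from the 3′ end of the transcript, and within the last 300 bases of the Crygb transcript the longest run shared with Crygc was 28 bases, with none of 251 windows of 50 bases in common. The last 60 coding bases of the family are shown because they lie near the sequenced end (GENCODE transcripts, GRCm38, coding strand, 5′ to 3′). Capitals mark letters unlike Crygc, which number 16 to 19.

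Crygc: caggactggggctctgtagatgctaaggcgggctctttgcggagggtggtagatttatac
Crygb: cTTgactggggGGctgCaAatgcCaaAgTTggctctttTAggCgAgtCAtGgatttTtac
Cryga: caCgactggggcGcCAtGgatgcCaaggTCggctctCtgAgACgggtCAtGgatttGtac
Crygd: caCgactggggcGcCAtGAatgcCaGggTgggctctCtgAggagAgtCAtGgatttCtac
Cryge: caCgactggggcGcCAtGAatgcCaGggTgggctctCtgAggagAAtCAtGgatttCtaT
Crygf: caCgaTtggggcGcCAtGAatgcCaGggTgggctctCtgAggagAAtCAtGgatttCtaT

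Cryge and Crygf were the nearest copies, 98.1% identical in coding sequence with 94 of 251 such windows in common, and reads that map to several places were left out of the counts. The levels of Cryge and Crygf are therefore uncertain.

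Crygc and, at a lower level, Crygb were found in vas deferens principal cells and hardly elsewhere. Levels are given as UPM, the UMIs of a gene per 1000000 UMIs of a group of cells, with 95% intervals that cover counting error only. In principal cells Crygc had 9423 UMIs in the vas deferens, 49 in the cauda and 0 in both the corpus and the caput. These are levels of 2012 UPM (1972 to 2053) and 28.2 UPM (20.8 to 37.2), while the counts of 0 have upper limits of 2.60 UPM in the corpus and 2.14 in the caput. Crygb had 919, 9, 0 and 0 UMIs in the same 4 groups, or 196 UPM (184 to 209) in the vas deferens and 5.17 UPM (2.37 to 9.82) in the cauda. For both genes the vas deferens stood far above the cauda, and the cauda level above the limits of the other regions. For Crygb the cauda interval overlapped that of the corpus. The vas deferens level was 71.4 times (54.0 to 96.6) that of the cauda for Crygc and 37.9 times (19.9 to 83.2) for Crygb. Against the floor of 3 UMIs in the caput the ratio was 1156 (395 to 5607) for Crygc and 113 (38.5 to 548) for Crygb, values that depend on the floor.

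Cryab followed no such order in principal cells. Its level was 86.0 UPM in the corpus (122 UMIs, 71.4 to 103), 44.4 in the vas deferens (208 UMIs, 38.6 to 50.9), 43.7 in the cauda (76 UMIs, 34.4 to 54.7) and 20.9 in the caput (36 UMIs, 14.6 to 28.9). The corpus was highest and the caput lowest beyond counting error, while the cauda and vas deferens, neighbours in that order, did not differ beyond it. The vas deferens level was 0.517 times (0.411 to 0.651) that of the corpus and 1.02 times (0.778 to 1.34) that of the cauda.

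**Figure D1:**
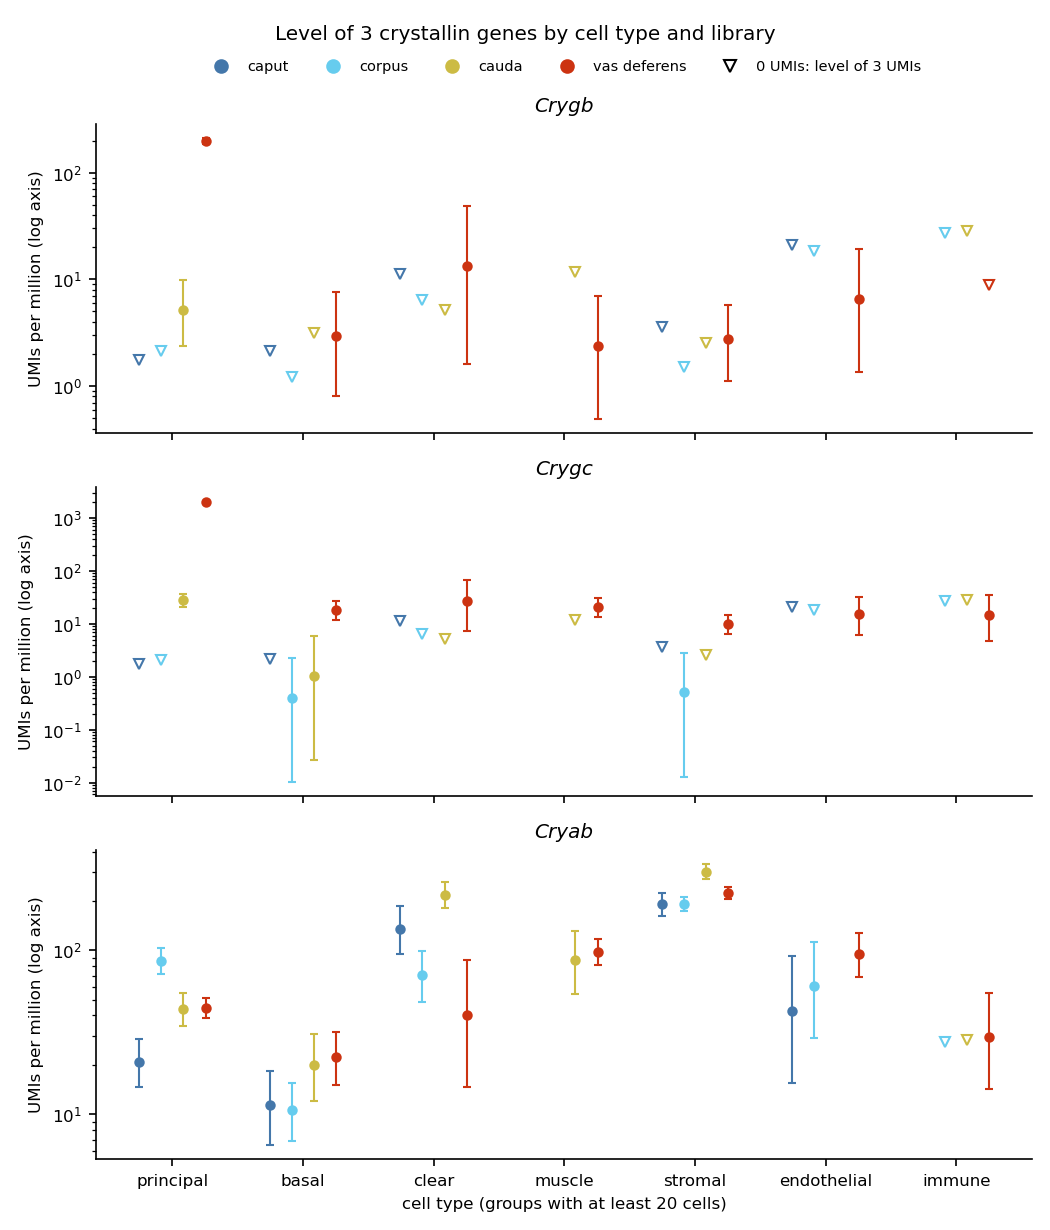
Levels of Crygb, Crygc and Cryab (UPM, log axes) in 7 cell types, coloured by library, with 95% Poisson intervals and open triangles at the level of 3 UMIs where a gene had none. Groups under 20 cells are left out. Crygb and Crygc stood out at 196 and 2012 UPM in vas deferens principal cells, whereas Cryab was highest in stromal cells within each library plotted.

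All 4 principal cell populations of the vas deferens carried both gamma crystallins, and PC03 had the highest level of each. These were PC02, PC03, PC08 and PC13, which held 1209 of the 1360 vas deferens principal cells. Crygc was at 1762 UPM in PC02 (1700 to 1825), 1733 in PC08 (1665 to 1804), 2090 in PC13 (1962 to 2224) and 3584 in PC03 (3455 to 3715). PC03 was highest and PC13 second, and PC02 and PC08 did not differ beyond counting error. Crygb kept the same order, at 165 UPM in PC02 (147 to 186), 165 in PC08 (144 to 187), 238 in PC13 (196 to 286) and 349 in PC03 (310 to 392). PC03 stood above PC02 by 2.03 times for Crygc (1.93 to 2.14) and by 2.11 times for Crygb (1.79 to 2.50). The 2 genes also kept a near constant proportion: Crygb made up 8.56% of the summed Crygb and Crygc UMIs in PC02, 8.63% in PC08, 8.88% in PC03 and 10.2% in PC13, with overlapping intervals. Since UMIs are counted at the transcript end, this proportion was not divided by transcript length. On few UMIs, the proportion was 17.1% (10.6 to 25.4) in vas deferens cells that are not principal. In cauda principal cells it was 15.5% (7.35 to 27.4). No vas deferens cell had exactly 1 Crygc UMI, while 230 had exactly 1 Crygb UMI. The effect of this on the proportion was not tested. Cryab ran from 32.9 UPM in PC03 (21.7 to 47.8) to 57.2 in PC08 (45.4 to 71.2), although PC03 and PC02, at 39.3 UPM (30.5 to 49.8), did not differ beyond counting error.

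In the 2 shared populations with the most vas deferens cells, the pooled Crygc level differed by region, on UMIs from few cells. PC14, the population that holds cells of the cauda and of the vas deferens in similar numbers, had 33 Crygc UMIs in its 100 vas deferens cells and 5 in its 141 cauda cells, or 311 UPM (214 to 436) against 19.7 UPM (6.38 to 45.9). This is a ratio of 15.8 (6.13 to 51.9), an interval that treats UMIs and not cells as the unit. The 33 UMIs lay in 8 cells, with 12 of them in 1 cell, and the 5 lay in 2 cells. PC11 had 14 Crygc UMIs in 26 vas deferens cells, or 106 UPM (58.1 to 178), and none in 100 cauda cells. Those 14 lay in 5 cells, with 6 of them in 1 cell. PC07 and PC04 had 0 Crygc UMIs in 16 and 8 vas deferens cells, with upper limits of 315 and 222 UPM. Their cauda cells had 1 and 10, so no difference was detectable there. Within PC14, Cryab went the other way without passing its counting error, with 3 UMIs in the vas deferens cells and 13 in the cauda cells (0.553 times, 0.101 to 2.01). The authors built the clusters from the most variable genes, so cells within a population may still differ in composition between the libraries.

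The converse held for the few cauda cells placed in vas deferens populations. Of 931 cauda principal cells, 7 fell in PC02 or PC08, and these held 33 of the 49 Crygc UMIs and 5 of the 9 Crygb UMIs of cauda principal cells. Their Crygc level was 1956 UPM (1347 to 2747), against 2127 UPM (2084 to 2171) in the vas deferens cells of those 4 populations. These levels did not differ beyond counting error, which treats UMIs and not cells as the unit. The 33 UMIs lay in 4 of the 7 cells, with 17 of them in the highest cell. Without that cell the level was 1289 UPM. The other 924 cauda principal cells were at 9.29 UPM (5.31 to 15.1). The 7 cells also carried Akr1b7, the aldo-keto reductase that marks vas deferens principal cells, at 31891 UPM. None of their barcodes occurred in the vas deferens library. Clusters of these same counts placed the 7 cells, so their likeness to vas deferens cells is not independent of that placement. Whether the 7 cells came from tissue at the border of the dissection was not tested.

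**Figure D2:**
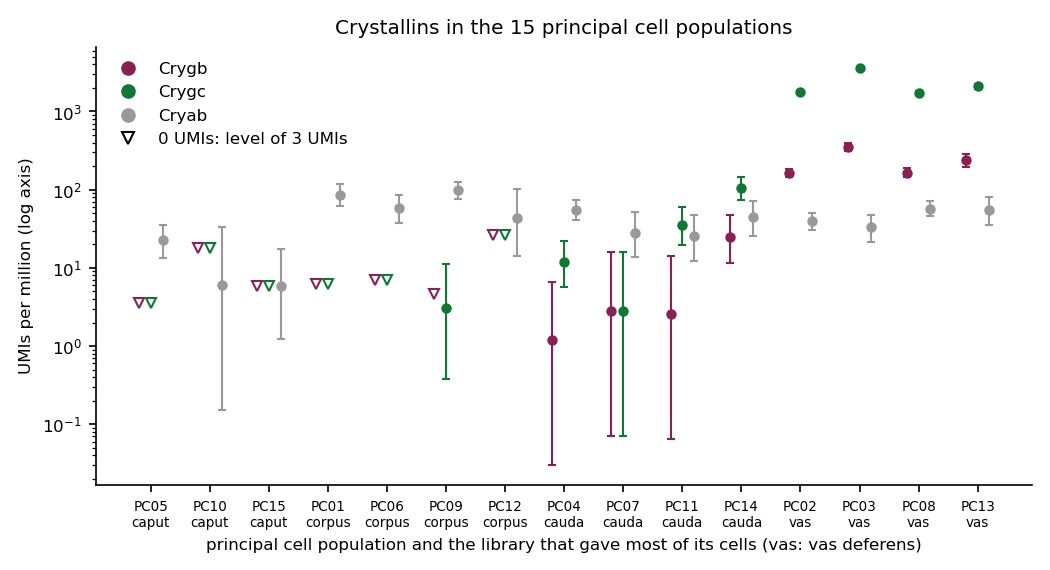
Levels (UPM, log axis) of the 3 genes in each of the 15 principal cell populations, ordered by the library that gave most of their cells, with 95% Poisson intervals and open triangles at the level of 3 UMIs for a count of 0. Crygc and Crygb were high in the 4 populations at the right, intermediate in PC14 at 105 and 24.9 UPM, and low or at 0 elsewhere, and Cryab showed no such step.

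Gamma crystallin UMIs outside principal cells were few, and were seen almost only in the vas deferens library. There the 2146 cells that are not principal held 92 Crygc UMIs in 33 cells, 15.2 UPM (12.2 to 18.6), and 19 Crygb UMIs, 3.13 UPM (1.89 to 4.89). By type, Crygc was at 18.5 UPM in basal, 26.7 in clear, 20.6 in muscle, 9.96 in stromal, 15.4 in endothelial and 14.9 in immune cells, with intervals that all overlapped. Akr1b7 was counted in the same cells as a yardstick: there were 39.2 Crygc UMIs per 1000 Akr1b7 UMIs in principal cells and 6.32 to 32.7 in the other types. In the other libraries, cells that are not principal had 0 Crygb UMIs and 3 Crygc UMIs, 2 in the corpus and 1 in the cauda. In the deposited vas deferens counts the lowest count above 0 was 2 for Crygc and 6 for Akr1b7. The effect of this on the ratios to Akr1b7 was not tested. Free RNA can give low shares of UMIs in all types, and its part here was not tested.

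Within the vas deferens principal cells, Crygc was spread unevenly from cell to cell. Of 1360 cells, 733 (53.9%) had a Crygc UMI, 402 (29.6%) a Crygb UMI and 138 (10.1%) a Cryab UMI. Crygc reached 180 UMIs in a single cell against a median of 2, and the 136 cells with the most held 60.8% of all its UMIs. The 136 cells with the most Crygb, ranked by that gene, held 65.1% of its UMIs. These 2 shares are not corrected for depth. The 243 cells with over 8000 UMIs held 5193 of the 9423 Crygc UMIs and 2727483 of the 4682368 UMIs of all genes. Detection was more frequent in deeper cells, while the pooled level had no such order: in the 295 cells with up to 500 UMIs, 21.7% had Crygc at a pooled level of 1686 UPM (1451 to 1949), and in the 243 cells with over 8000 UMIs, 88.9% had it at 1904 UPM (1853 to 1956). These counts were deposited after removal of ambient RNA. No cell of the vas deferens library had exactly 1 Crygc UMI while 159 had 2, and Akr1b7 had no count below 6, whereas 230 cells had exactly 1 Crygb UMI. Whether the removal set low counts to 0 was not tested, and shares of cells with Crygc are shares of the deposited counts.

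**Figure D3:**
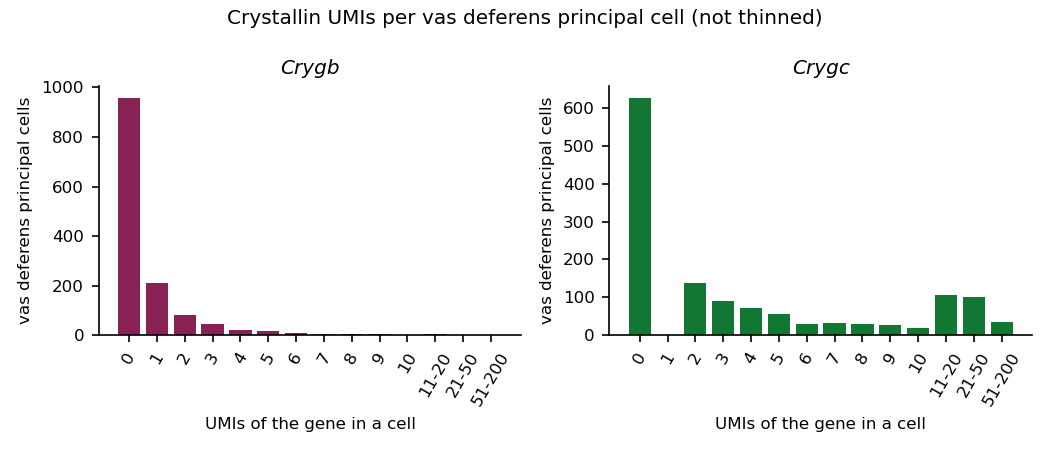
Number of vas deferens principal cells (1360) by their UMIs of Crygb (left) and Crygc (right), without thinning, where bins over 10 UMIs are wider than 1. The Crygc plot has 627 cells at 0, none at 1 and 138 at 2, and 35 cells above 50.

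For a comparison at equal depth, 1000 UMIs were drawn at random from every cell that had them, which kept 773 of the 1360 cells. Crygc was then found in 457 cells (59.1%, 55.6 to 62.6), Crygb in 136 (17.6%, 15.0 to 20.5) and Cryab in 35 (4.53%, 3.17 to 6.24). In the vas deferens immune cells, taken as background, the thinned shares were 2 of 91 cells for Crygc, 0 of 91 for Crygb and 1 of 91 for Cryab. Before thinning, the median depth was 2368 UMIs over all 118 immune cells and 1286.5 over all 1360 principal cells. Both gamma crystallins occurred together in 130 cells (16.8%, 14.2 to 19.6), where unrelated detection would give 80.4. Only 6 cells had Crygb without Crygc, so 130 of 136 cells with Crygb also had Crygc. Crygc and Cryab occurred together in 16 cells against 20.7 for unrelated detection, a difference too small to read at this depth. The joint count exceeded that for unrelated detection in each of the 4 populations, with 42 cells against 25.3 in PC02, 40 against 31.2 in PC03, 32 against 20.9 in PC08 and 22 against 14.7 in PC13.

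The cell-to-cell spread of Crygc was compared with that of genes at a like level. In a second draw of thinned vas deferens principal cells, 76 other genes had a level within 1.5 times that of Crygc. Their median share of cells with a UMI was 76.8% and that of Crygc was 58.6%, with 1 of the 76 lower. This was Hspa5, the chaperone of the endoplasmic reticulum, at 53.0%, named after its value was seen. The variance of Crygc counts was 4.19 times their mean against a median of 1.53, and 1 gene was higher (Aqp2, a water channel, at 4.34). The gap at 1 UMI was found in 73 of the 76 genes too. Its part in the spread was not tested. For Crygb the ratio of variance to mean was 1.40 against a median of 1.08, with 29 of 612 genes of like level higher, and for Cryab 1.13 against 1.02, with 190 of 1907 higher.

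Genes beside Crygb and Crygc on chromosome 1 were high in the same cells. Of the 5 nearest genes of the table on each side of Crygc, 4 were restricted to vas deferens principal cells by the rule above. As 1 of them is Crygb, itself selected on its level there, 3 that were not selected remain. The share of restricted genes was 1.58% of those with 20 UMIs in these cells, a number that some of the neighbours did not reach. In chromosome order the restricted genes were Akr1cl (an aldo-keto reductase family gene), Crygc, Crygb, D630023F18Rik (a gene of unknown function) and Idh1, the cytosolic isocitrate dehydrogenase that makes NADPH. In RefSeq coordinates on GRCm38.p6, Akr1cl lies at chr1:65013078-65032759, Crygc at chr1:65071525-65073532, Crygb at chr1:65080222-65082290, D630023F18Rik at chr1:65105284-65123351 and Idh1 at chr1:65158616-65186479. Crygb and Crygc are on the minus strand.

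In vas deferens principal cells Akr1cl had 1632 UMIs, D630023F18Rik 397 and Idh1 4323, against 2, 2 and 101 in the principal cells of the 3 epididymal libraries together. The levels were 349 UPM (332 to 366) against 0.410 UPM for Akr1cl, 84.8 UPM (76.7 to 93.6) against 0.410 UPM for D630023F18Rik and 923 UPM (896 to 951) against 20.7 UPM for Idh1. The ratios were 851 (235 to 7031), 207 (56.9 to 1715) and 44.6 (36.6 to 54.9), beside 201 (152 to 271) for Crygc and 106 (55.8 to 234) for Crygb. PC03 was the highest of the 4 populations for these neighbours too, at 528 UPM of Akr1cl (480 to 580), 108 UPM of D630023F18Rik (87.0 to 133) and 1218 UPM of Idh1 (1144 to 1296). For Akr1cl it stood beyond the intervals of the other populations, while for Idh1 its interval overlapped that of PC13, and for D630023F18Rik those of all 3.

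Not every gene of the stretch was high. Crygd, which lies between Cryge and Crygc, had 0 UMIs in vas deferens principal cells, with an upper limit of 0.788 UPM. Cryge had 33 UMIs there, 7.05 UPM (4.85 to 9.90), and 2 in the epididymis, a ratio of 17.2 (4.40 to 148), and Cryga had 17 UMIs, 3.63 UPM (2.11 to 5.81), and 0 in the epididymis. Cryge and Cryga were thus low in these counts and, like their restricted neighbours, seen mainly in the vas deferens. Reads that map to several places were left out. In the last 300 bases Cryge had 94 of 251 windows in common with Crygf, and Crygd 14 with Cryge. The effect on the counts of Cryge and Crygd was not tested. At the far ends, Pikfyve, a lipid kinase gene next to Idh1, was level at 16.9 and 16.6 UPM (1.02 times, 0.736 to 1.40), Plekhm3 had 10 and 8 UMIs, and Fzd5, a Wnt receptor gene, was lower in the vas deferens at 5.77 against 33.4 UPM. Of the 139 restricted genes with a position, 110 had no other restricted gene among their 10 nearest, 24 had 1 and 3 had 2 or 3. Those 3 are Akr1cl, D630023F18Rik and Idh1 of this same stretch, so no gene outside it had more than 1. Crygb and Crygc had 4 each, or 3 without each other.

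**Figure D4:**
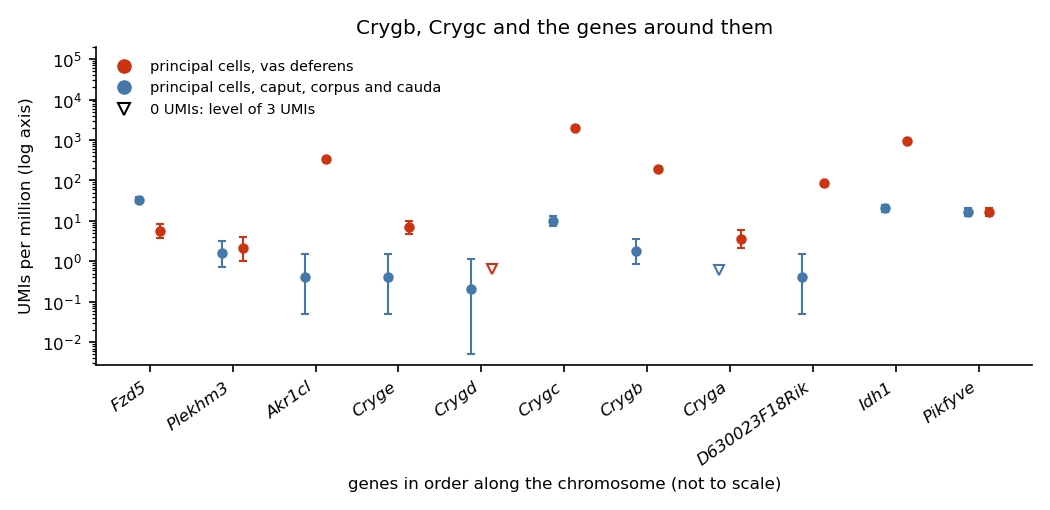
Levels (UPM, log axis) of Crygb, Crygc and 9 genes around them in chromosome order (not to scale), in principal cells of the vas deferens (red) and of the 3 epididymal libraries together (blue), with 95% Poisson intervals and open triangles at the level of 3 UMIs for a count of 0. From Akr1cl to Idh1 the red points of 5 genes stood 44.6 to 851 times above the blue ones, Cryge and Cryga stayed below 10 UPM and Crygd had no UMI in the vas deferens.

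The promoters of the family were compared because neighbouring genes differed so widely in level. In the 250 bases before the RefSeq start site the genes Cryga to Crygf shared a 6-base run, TTTGTG, 54 to 77 bases before the start, which 15.6% of 32544 promoters of that length hold on either strand. It is shown with 12 bases on each side, in capitals, on the coding strand.

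Crygc, chr1:65073579-65073608, minus strand: ccgagggcccctTTTGTGcagttccgctaa
Crygb, chr1:65082341-65082370, minus strand: gaaatgggccccTTTGTGtgatttcctgtg
Cryga, chr1:65103423-65103452, minus strand: ccccaggcccctTTTGTGtggttcttgcca
Crygd, chr1:65063489-65063518, minus strand: acgcgggcctctTTTGTGccgttcctgcca
Cryge, chr1:65051200-65051229, minus strand: ccgcgggcccctTTTGTGccgttcctgcca
Crygf, chr1:65926442-65926471, plus strand: ctgcgggcccctTTTGTGctgttcctgcca

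The longest run that Crygb and Crygc had in common, GGGCCCCTTT, ends in the first letters of TTTGTG and was held by Cryge and Crygf as well and by 0.0953% of all promoters. Of 5 motifs searched on both strands, TATATA was in 6 of 6 promoters (5.01% of all promoters), and TATAAA and the heat shock element GAANNTTC were in none (12.3% and 6.72% of all). TGCTGA, the Maf half-site of lens promoters, was in those of Crygc and Cryga (16.1% of all), and AGAACA, an androgen receptor half-site, was in that of Crygd (16.0% of all). A match is a run of letters and not a bound site. Cryab is not in the promoter table.

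Genes whose pattern over populations was most like that of the gamma crystallins included the same neighbours. Likeness was the Pearson correlation of log2(UPM + 10) over the 34 populations, among genes with at least 200 UMIs. It is given as a description, since populations of 1 library share its depth and its ambient RNA. For Crygb the 5 nearest genes were D630023F18Rik (r = 0.99), Eci3 (0.99), Crygc (0.98), Kcnj16 (0.97) and Ccdc109b (0.96). For Crygc they were Crygb (0.98), Eci3 (0.97), D630023F18Rik (0.97), Elf5 (0.96) and Aqp2 (0.96). Over the 41 groups of population and library with at least 50 cells, Akr1cl joined both lists (r = 0.98 with each). Cryab was not like either, with r = 0.06 to Crygb and 0.08 to Crygc over the 34 populations. The genes near it were looser and included Dync2li1 (0.78) and Yod1 (0.78).

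Cryab was highest in stromal cells. With all libraries pooled clear cells came next, whereas within the vas deferens muscle and endothelial cells did. Its stromal level was 301 UPM in the cauda (270 to 334), 223 in the vas deferens (205 to 242), 192 in the corpus (173 to 212) and 191 in the caput (163 to 223). The cauda was highest beyond counting error. The share of genes with the cauda highest was not counted. By order alone, the vas deferens was the highest library for 25.4% of the 10692 genes with 20 UMIs in stromal cells. The smooth muscle list was at 11997 UPM in stromal cells, and its gene Acta2 at 7212 UPM in the Connective population and 51.8 in AngryVasStromal, the 2 populations with the most Cryab. Its part in the Cryab level was not tested. In clear cells, the proton-pumping cells that acidify the lumen, it was at 218 UPM in the cauda (181 to 259), 135 in the caput (94.8 to 187), 70.7 in the corpus (48.6 to 99.3) and 40.1 in the vas deferens (14.7 to 87.2), the last from 6 UMIs in 38 cells. The vas deferens was the lowest library for 34.0% of the 7641 genes with 20 UMIs in clear cells. The cauda was again highest, 3.08 times the corpus (2.08 to 4.67). Over all libraries stromal cells stood above clear cells by 1.63 times (1.40 to 1.89), above muscle cells by 2.27 times (1.92 to 2.71), above principal cells by 4.84 times (4.34 to 5.39) and above basal cells by 15.2 times (12.3 to 19.0).

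Muscle, where Cryab is known from striated fibres, held less of it here than stromal cells as a whole. Of the 1450 stromal UMIs, 926 were in Connective, where Acta2 was at 7212 UPM, and 173 in AngryVasStromal, where it was at 51.8. Vas deferens muscle cells were at 97.5 UPM (81.0 to 116) from 123 UMIs in 437 cells, and cauda muscle cells at 86.8 UPM (54.4 to 131), which did not differ beyond counting error. The 7 corpus muscle cells had 5 UMIs, or 503 UPM (163 to 1174), too few cells to place beside the others. These cells carried the smooth muscle list (Acta2, Myh11, Des and others) at 85068 UPM in sum. Among populations, MuscleGfra4 was at 106 UPM (88.1 to 125) and Muscle at 69.4 (42.9 to 106). In basal cells, which sit on the basement membrane under the principal cells, Cryab was at 22.2 UPM in the vas deferens (15.0 to 31.7), 19.9 in the cauda, 11.3 in the caput and 10.5 in the corpus. The vas deferens was the highest library for 29.8% of the 9862 genes with 20 UMIs in basal cells, and without 1 cell that held 10 of the 30 UMIs its level was 14.9. Endothelial cells of the vas deferens were at 94.6 UPM (68.4 to 127) from 43 UMIs, 13 of them in a single cell. The endothelial population also held Schwann cell markers at 138 UPM in sum, against 8.57 to 44.3 UPM in principal and basal cells, and whether these go with Cryab was not tested. All 10 UMIs of immune cells were in a single vas deferens macrophage.

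The population order of Cryab turned on individual cells in part. The highest populations were AngryVasStromal at 256 UPM (219 to 297), Connective at 241 (226 to 257) and StemStromalVas at 211 (185 to 240), whose intervals overlapped, followed by Clear at 150 (128 to 175) and Fibroblast at 148 (118 to 184). Of the 241 UMIs of StemStromalVas, 138 were in a single cell, 2.98% of its 4633 UMIs. The next highest cell of any type had 33. That cell had 226 UMIs of Dcn and 12 of Col1a1, both stromal genes, and none of the muscle, Schwann, epithelial, endothelial or immune markers counted in it. Without it StemStromalVas fell to 90.6 UPM and the vas deferens stromal cells as a whole to 168 UPM. Connective, spread over 975 cells from all 4 libraries, moved only to 233 UPM without its highest cell. The lowest non-zero levels were in the caput populations PC15, at 5.88 UPM from 3 UMIs, and PC10, at 6.01 from 1.

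**Figure D5:**
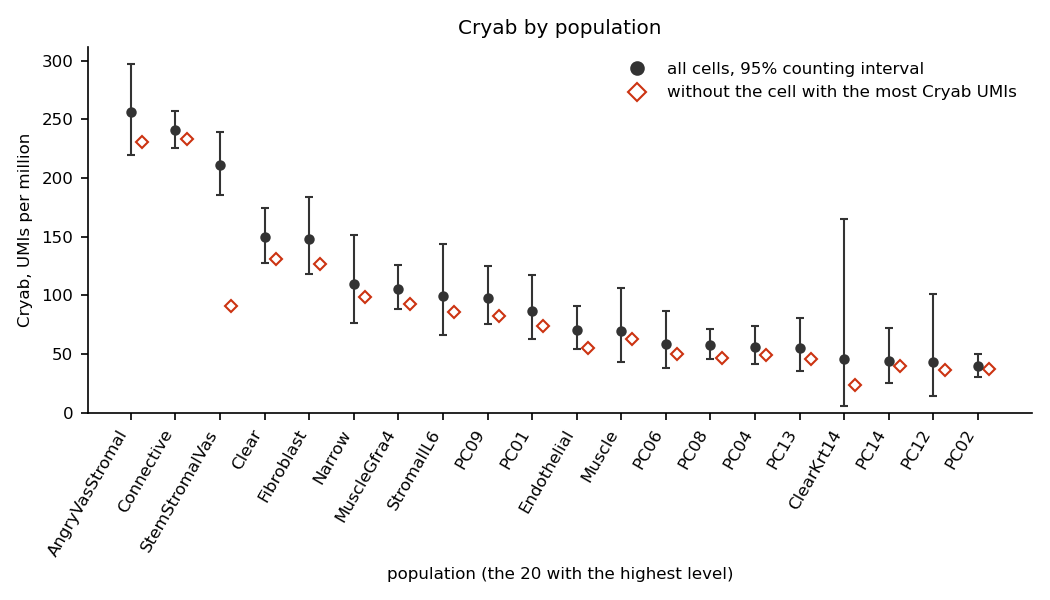
Cryab level (UPM, linear axis from 0) in the 20 populations with the highest level, with 95% Poisson intervals (black) and the level without the cell that held the most Cryab UMIs (open red diamonds). StemStromalVas dropped from 211 to 90.6 UPM without a single cell, and the other 4 of the 5 highest populations kept levels from 126 to 233 UPM.

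The position of Cryab calls for a caution on counting. In GENCODE it lies on the plus strand at chr9:50751325-50756636, and Hspb2, another small heat shock gene, lies on the minus strand at chr9:50751078-50752354, so that the 2 genes overlap at their start. Hspb2 had 183 UMIs in all cells against 2403 for Cryab, and whether the counting used strand is not given in the sources used here. Of the 10 genes nearest to Cryab, 1 (1110032A03Rik, 139 against 30.5 UPM) was restricted to vas deferens principal cells.

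Of 22 other crystallin genes listed, 18 were in the table and 12 had at least 20 UMIs, of which 7 had a higher and 4 a lower level in vas deferens than in epididymal principal cells. Over all 13655 genes with 20 UMIs, 48.1% were higher and 49.8% lower by the same count of direction, which does not weigh counting error. Cryba4, a beta crystallin, was the most abundant of them with 941 UMIs and ran opposite to Crygc, at 405 UPM in caput principal cells (375 to 436), 94.3 in those of the cauda, 18.3 in the corpus and 0.641 in the vas deferens. Crybb1, a beta crystallin too, was at 38.2 UPM in the vas deferens (32.8 to 44.3), 17.4 in the caput (11.7 to 24.8), 16.7 in the cauda (11.2 to 23.9) and 9.16 in the corpus (4.88 to 15.7). The alpha crystallin Cryaa, the lens partner of Cryab, had 2 UMIs in all cells. Of 16 other lens genes and lens factors listed, 10 were in the table. The transcription factors Maf and Prox1 had 4 and 1 UMIs in vas deferens principal cells.

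Small heat shock genes, the family of Cryab, had their own distribution. Of 8 listed, 7 were in the table and 5 had at least 20 UMIs. Hspb2, Hspb6, Hspb7 and Hspb8 were highest in muscle cells, where Hspb6 reached 823 UPM and Hspb8 481 UPM, and Hspb1 was highest in endothelial cells at 2613 UPM. None of the 5 had its highest level in stromal cells, unlike Cryab. Hspb8, which works with the co-chaperone Bag3, was close in stromal cells at 465 UPM. Of 13 heat shock and co-chaperone genes with 20 UMIs, 1 had a higher and 12 a lower level in vas deferens than in epididymal principal cells, against the 49.8% of all genes. Among the 12 are near ties such as Bag3, at 54.9 against 55.7 UPM. The early genes that dissociation can raise (Junb, Jun, Atf3, Fos and others) were lower in 8 of 10, against the same 49.8%.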

How the data were processed

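Whole UMI counts of 16892 genes in 8880 cells were deposited with a table of cells. Per the methods, the authors aligned reads to mm10 (GRCm38) with HISAT2 2.0.4, counted UMIs on RefSeq genes with ESAT, ignored reads mapping to several places and removed ambient RNA with a modified SoupX, which took 2.80% to 4.48% of the UMIs in each library. The deposited size factors, a ratio per cell, served as an alternative denominator. Cell types were not re-clustered, and the deposited principal cell numbers differ from those of the publication.

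UMIs were summed over cells per 1000000 (UPM). The 95% intervals of levels are exact Poisson ones, those of shares are Clopper-Pearson, and ratios have conditional binomial ones. All cover counting error only. With 1 library per region no test between regions was run. In ratios and figures a count of 0 was set to a floor of 3 UMIs. Called doublets (178 cells) were kept. The script that calls restricted genes was checked on simulated counts. The members, the lists of crystallins, heat shock, early and lens genes, the 10 nearest genes and the 5 most alike were chosen with earlier results of these data known. Genes were named by those lists, and at most 4 per list and comparison of the heat shock, early and lens genes, highest first, beside cell type markers. Alternatives changed the denominator, the weight of cells, depth, doublets and libraries used. RefSeq promoters matched Crygb and Crygc of the 3 genes. Analyses used Python 3.11.15, numpy 2.4.6, scipy 1.17.1 and biopython 1.88. Some listed genes are not reported here.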

Additional observations from a re-analysis of the deposited data

Results flagged for a closer look

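Cryab moved in opposite directions between basal and clear cells of the vas deferens. In basal cells its level in the vas deferens, 22.2 UPM from 30 UMIs, was above that of the caput (11.3), corpus (10.5) and cauda (19.9), as it was for 29.8% of the genes with 20 UMIs in basal cells. In clear cells its level in the vas deferens, 40.1 UPM from 6 UMIs, was below that of the caput (135), corpus (70.7) and cauda (218), as it was for 34.0% of the genes with 20 UMIs there. The ratio of the vas deferens to the cauda had an interval of 0.609 to 2.10 in basal cells, and that of the vas deferens to the corpus one of 0.194 to 1.37 in clear cells, so neither differed from its nearest library beyond counting error. Without a single basal cell that held 10 UMIs the vas deferens level was 14.9 UPM, below that of the cauda. The difference between the cell types was not tested.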

How the results depend on the processing

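No paired analysis was possible because each region is 1 library. Of 75 alternative values, 49 stayed within the main interval (or within 1.5 times a count), 25 moved and 1 reversed, and those added after seeing the data left out the cell with the most UMIs of a gene. Without the 10 most abundant genes in the denominator, the vas deferens principal levels were 242 (Crygb), 2477 (Crygc) and 54.7 UPM (Cryab). As means over cells they were 221 UPM for Crygb and 80.4 for Cryab in muscle, and the ratios to the cauda 83.3 for Crygb and 105 for Crygc. Crygc was at 2108 UPM with the authors' size factors and at 1962 with UMIs before ambient removal. In populations with 95% of their cells from 1 library, the ratios were 1.38 (Crygb), 2.16 (Crygc) and 0.738 (Cryab). By construction this setting keeps 20 cauda cells, 7 of them in vas deferens populations. Leaving out each library in turn gave ratios of 37.9 to 92.8 for Crygb, 71.4 to 952 for Crygc and 0.517 to 1.02 for Cryab, which reversed to 1.02 without the corpus. Without the cauda, the Crygb and Crygc values rest on the floor in the corpus. The share of cells with both gamma crystallins was 8.83% at 500 UMIs, 27.7% at 2000, 28.3% without thinning, 2.59% with 2 UMIs of each and 14.2% without called doublets. Restricted genes numbered 748 at a fold of 2, 42 at 8, and 205 to 225 without 1 library (221 without the corpus, 225 without the cauda), and Crygb, Crygc, Akr1cl, D630023F18Rik and Idh1 were among them in each. Without its highest cell, Cryab was at 168 UPM in vas deferens stromal and 90.6 in StemStromalVas cells. Depth limits the shares of Crygb and Cryab, which a cell of 1000 UMIs seldom shows.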
